A study of Mus musculus with 9 samples.

Results

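Of the claudins on the array, 10 were followed as members of a gene family in clones of RAW-264.7 cells, a murine monocyte/macrophage line. Some clones had forced expression of the forkhead transcription factor FoxQ1 and others did not. These claudins are Cldn1, Cldn3, Cldn4, Cldn5, Cldn7, Cldn10, Cldn11, Cldn12, Cldn15 and Cldn18, and make up 10 of the 16492 gene rows measured. They were taken by gene symbol, with earlier results of these data known. Another 9 claudins with a row on the array are described further on. The study asked which genes differ in RAW cells that carry FoxQ1 and how this relates to monocyte migration. RAW-FoxQ1 was represented by 5 clones, numbered 7.1 to 7.5, that stably carry the mouse FoxQ1 coding fragment in the pEF6/V5-His TOPO plasmid, and RAW-vector by 4 clones, numbered 4 to 7, that carry the empty plasmid. All 9 clones grew under blasticidin at 6 µg/ml and received no other treatment. The study's methods state derivation from single cells for clones with the FoxQ1 construct and do not say it again for those with the empty plasmid. Each clone gave total RNA for 1 Affymetrix mouse genome array, so n counts clones, and the p-values measure the spread between these clones, for which the sources used here give no shared or separate founder culture.

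Claudins are small membrane proteins with 4 membrane-spanning segments that polymerize into the strands of tight junctions, the contacts that seal the space between neighbouring epithelial or endothelial cells. Some members tighten this seal, others form pores for chosen ions, and most end in a short motif that binds PDZ domains of scaffold proteins such as ZO-1. Monocytes and macrophages do not build epithelial sheets, and claudins in these cells have been studied for their possible part in adhesion and migration. Claudin-11, also named oligodendrocyte-specific protein, forms the strands of central myelin and of the Sertoli cell barrier in the testis.

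The sequence around the gene start is shown for Cldn11 and Cldn4. Among the 10 claudins, these are the ones whose clone values did not overlap between the groups, which holds for 36.1% of all gene rows. The nearest clones of the groups were 3.92 apart on the log2 scale for Cldn11 and 0.0059 apart for Cldn4. The windows run from 250 bases before to 50 bases after the start (RefSeq, GRCm38.p6), 5′ to 3′ on the gene's strand. The Cldn11 window is chr3:31149670-31149969 on the plus strand and the Cldn4 window is chr5:134946885-134947184 on the minus strand. Capitals mark 3 motifs, each searched on both strands. One is the GC box, spelled GGGCGG, another is the CCAAT box, which reads ATTGG on the opposite strand, and the last is the E-box CACCTG, to which Snail and ZEB repressors bind.
Cldn11: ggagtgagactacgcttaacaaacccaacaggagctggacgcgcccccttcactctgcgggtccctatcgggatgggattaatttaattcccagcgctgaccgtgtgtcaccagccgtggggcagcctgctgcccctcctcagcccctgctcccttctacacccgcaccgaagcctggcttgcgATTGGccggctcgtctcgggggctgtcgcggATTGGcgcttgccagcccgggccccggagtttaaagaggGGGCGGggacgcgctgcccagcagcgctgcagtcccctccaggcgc
Cldn4: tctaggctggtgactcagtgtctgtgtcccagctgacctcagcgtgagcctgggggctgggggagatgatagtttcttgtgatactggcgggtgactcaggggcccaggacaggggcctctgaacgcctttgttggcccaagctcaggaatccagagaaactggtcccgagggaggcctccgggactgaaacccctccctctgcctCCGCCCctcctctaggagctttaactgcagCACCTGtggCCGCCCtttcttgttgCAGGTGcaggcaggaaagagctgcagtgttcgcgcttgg

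The forkhead core TGTTTA, also searched on both strands, is in neither of these windows. It is in 0 of the 15 windows of the 10 claudins and in 13.4% of the 32851 mouse windows of the same length, which says only that these letters are not in these stretches. The Cldn11 window has a GC content of 66.3% and 24 CpG dinucleotides, against medians of 52.7% and 7 over all windows, and 80.0% of windows have fewer CpG. Its CCAAT boxes begin at -66 and -35 and its GC box at 5, counted from 1 at the gene start. A CCAAT box is in 37.4% of all windows and in those of 4 claudins, Cldn5, Cldn10, Cldn11 and Cldn12. A GC box is in 35.7% of all windows and in those of 9 claudins, all but Cldn18. The Cldn4 window has 9 CpG, E-boxes at -14 and 12 and GC boxes at -44 and -5. The E-box is in 20.2% of all windows and, among the claudins, in those of Cldn3, Cldn4 and Cldn7. The TATA box TATAAA, searched in the same way, is in 13.6% of all windows and in 0 of the 15. No marked match overlaps another in these windows, and a match describes the sequence, not a bound site.

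The arrays had been quantile-normalized by the authors, so each has the same distribution, and the number of arrays limits the precision. Arrays correlated across gene rows at 0.981 to 0.997 among RAW-FoxQ1 clones, 0.988 to 0.998 among RAW-vector clones and 0.934 to 0.968 between the groups. The 27 probe sets for poly-A spike-in RNA, added to each sample before labelling, averaged 8.06 in RAW-FoxQ1 clones and 8.56 in RAW-vector clones on the log2 scale, a difference of -0.50 (p = 0.0159, two-sided exact permutation test). The poly-A measure moves with the groups. Values with it as a covariate are therefore also given for the claudins and, where a call was lost, for the other genes. The 18 hybridization control probe sets averaged 11.34 in RAW-FoxQ1 clones and 11.52 in RAW-vector clones. That difference was -0.18 (p = 0.0635, two-sided exact permutation test). Foxq1 itself read 7.33, 7.27, 7.44, 7.39 and 7.40 in RAW-FoxQ1 clones 7.1 to 7.5 and 7.01, 6.94, 6.99 and 6.95 in RAW-vector clones 4 to 7, with no overlap. Its log2 fold change was 0.39 (adjusted p = 4.7e-05 from limma). Since no source used here places the Foxq1 probes relative to the transfected fragment, it cannot be told whether this row reads the transgene. Over all 16492 gene rows limma called 40.9% at an adjusted p under 0.05, 19.6% higher and 21.4% lower in RAW-FoxQ1.

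Cldn11 fell in RAW-FoxQ1 clones, and by far more than any other claudin. Its log2 value was 6.23, 6.29, 6.20, 6.28 and 6.33 in RAW-FoxQ1 clones 7.1 to 7.5, and 10.25, 10.91, 10.52 and 10.50 in RAW-vector clones 4 to 7. All 5 RAW-FoxQ1 clones lay low and close together, all 4 RAW-vector clones lay high, and the gap between the nearest clones of the groups was 3.92 on the log2 scale. The means were 6.27 ± 0.051 (SD, n = 5) in RAW-FoxQ1 and 10.55 ± 0.272 (SD, n = 4) in RAW-vector. This is a log2 fold change of -4.28, or a signal 19.4-fold lower (standard error 0.108, 95% confidence interval -4.52 to -4.04, Benjamini-Hochberg adjusted p = 1.3e-08 in limma). The exact two-sided permutation test gave p = 0.00794, the smallest that 5 clones against 4 allow. The difference was 6.49 times the whole range of the RAW-vector clones. It stayed at -4.10 (adjusted p = 3.4e-05 from limma) with the poly-A controls as a covariate and between -4.38 and -4.16 when any 1 clone was left out. In RNA of whole cultures, fewer cells with the transcript and less transcript per cell cannot be told apart.

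**Figure D1:**
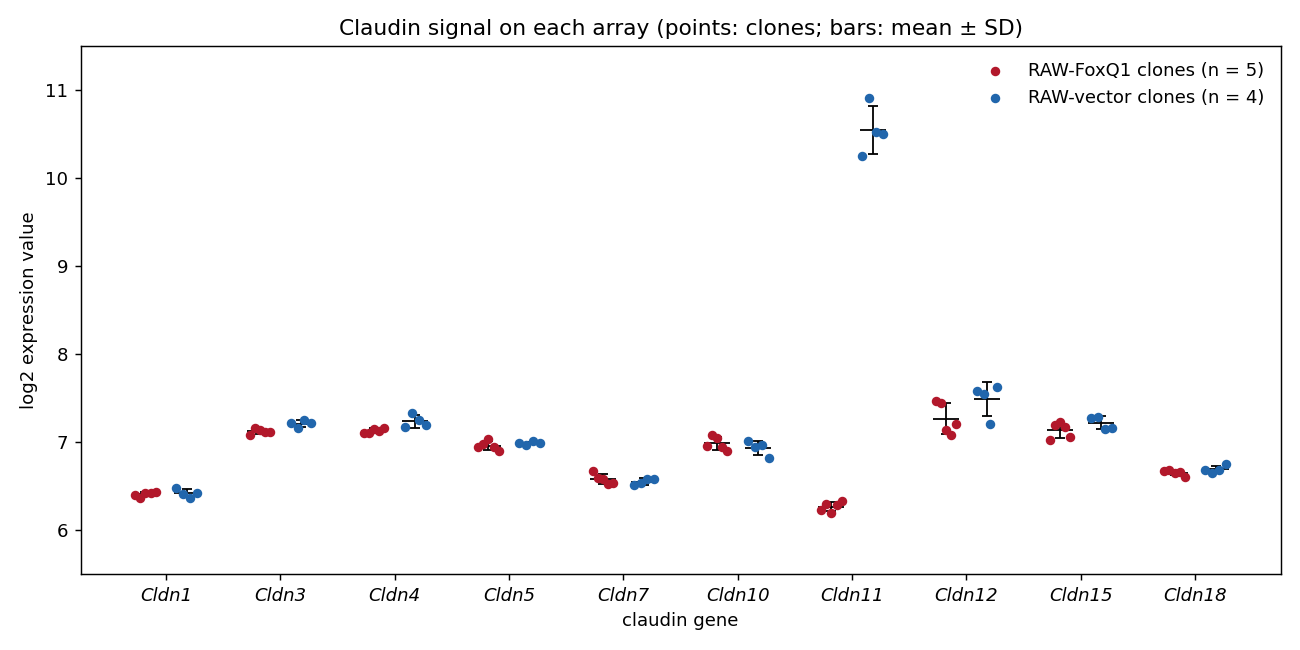
Log2 expression value (vertical axis) of each of the 10 claudins, with 1 point per clone, RAW-FoxQ1 (n = 5, red) left of RAW-vector (n = 4, blue), and bars for mean ± SD. Cldn11 averages 6.27 in RAW-FoxQ1 and 10.55 in RAW-vector, while the clones of the other 9 claudins all lie between 6.37 and 7.63.

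Against the other genes on the array, Cldn11 was dim in RAW-FoxQ1 and bright in RAW-vector. Its mean stood at the 5.38 percentile of gene rows in RAW-FoxQ1 clones and at the 93.2 percentile in RAW-vector clones. Of the 1649 gene rows above the 90 percentile in RAW-vector, 1 lay below the 10 percentile in RAW-FoxQ1, and that was Cldn11, while the next lowest stood at 45.3. It had the second lowest log2 fold change on the array and ranked 11 by p-value. Signals of different probe sets are not amounts of mRNA, and no detection calls come with the values. The lowest value of any gene on any array was 5.64, so at 6.27 the array gives a signal close to its lower end, and the fold describes array signal rather than transcript number.

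RAW-vector clones differed in Cldn11 more than RAW-FoxQ1 clones did. Their values spanned 0.659 on the log2 scale, with clone 5 highest and clone 4 lowest, and the RAW-FoxQ1 clones spanned 0.130. The SD of the RAW-vector clones was 5.31 times that of the RAW-FoxQ1 clones. For scale, 2221 gene rows within 0.25 of the RAW-FoxQ1 mean of Cldn11 had a median SD of 0.0481 in RAW-FoxQ1, near the 0.051 of Cldn11, and 529 gene rows within 0.25 of its RAW-vector mean had a median SD of 0.123 in RAW-vector, below its 0.272. With 4 and 5 clones these spreads are a description.

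Among the 10 claudins, 1 was called lower and 0 higher, and 9 were not called (10.0% called, against 40.9% of all gene rows). At an unadjusted p under 0.05, which at least 40.9% of all gene rows had, limma gave 3 lower and 0 higher. The clone values of 2, Cldn11 and Cldn4, did not overlap between the groups, against 36.1% of all gene rows. The median log2 fold change was -0.06 over the 10 and -0.04 without Cldn11, beside -0.01 over all gene rows. Of the 9 others, 7 leaned lower and 2 higher, and their 95% intervals reached from -0.47 to 0.16 in all. Their means stood between the 10.1 and 44.9 percentile in RAW-FoxQ1. In RAW-vector they stood between the 10.4 and 50.2 percentile, from the dim part to about the middle of the array.

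**Figure D2:**
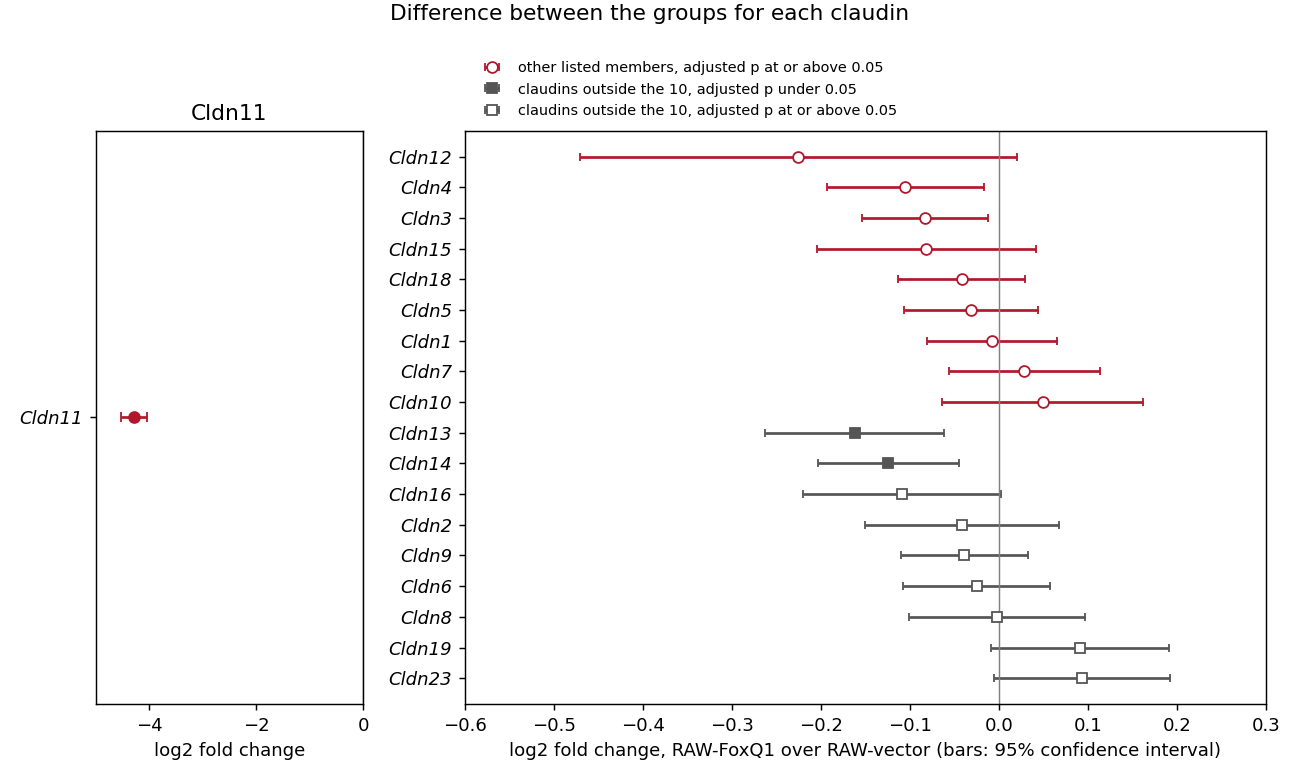
Log2 fold change of RAW-FoxQ1 over RAW-vector with its 95% confidence interval, Cldn11 on an axis of its own at -4.28, the other 9 claudins (circles) and 9 more claudins found on the array (squares) on the wider axis. Filled symbols have an adjusted p under 0.05, which are Cldn11, Cldn13 and Cldn14.

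Cldn4 and Cldn3, barrier claudins that serve as receptors for an enterotoxin of Clostridium perfringens, leaned lower by small amounts. Cldn4 read 7.11, 7.10, 7.15, 7.13 and 7.16 in RAW-FoxQ1 clones 7.1 to 7.5 and 7.17, 7.33, 7.25 and 7.19 in RAW-vector clones 4 to 7. The groups did not overlap, but the nearest clones were only 0.0059 apart. Its log2 fold change was -0.10 (standard error 0.039, 95% confidence interval -0.19 to -0.017), with an adjusted p of 0.0581 from limma and an exact permutation p of 0.00794. Cldn3 read 7.09, 7.16, 7.14, 7.12 and 7.12 in RAW-FoxQ1 clones 7.1 to 7.5 and 7.21, 7.16, 7.25 and 7.22 in RAW-vector clones 4 to 7. RAW-FoxQ1 clone 7.2 and RAW-vector clone 5 met at 7.16, so the groups overlapped. Its log2 fold change was -0.08 (standard error 0.031, 95% confidence interval -0.15 to -0.012), with an adjusted p of 0.0613 from limma and an exact permutation p of 0.0159. Neither passed the threshold, and both stand near it. Cldn4 reached an adjusted p of 0.0395 in limma without RAW-vector clone 4. Cldn3 reached 0.0414 without RAW-vector clone 5 and 0.0229 with the per-gene test of the study's methods. With the poly-A controls as a covariate the log2 fold changes were -0.061 for Cldn4 and -0.13 for Cldn3, with adjusted p of 0.683 and 0.226 from limma. Cldn3 and Cldn4 both lie on chromosome 5, as do Cldn12 and Cldn15.

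Cldn12, which unlike most claudins lacks the PDZ-binding end, varied most among clones of the 9. It read 7.47, 7.44, 7.14, 7.08 and 7.21 in RAW-FoxQ1 clones 7.1 to 7.5 and 7.58, 7.55, 7.21 and 7.63 in RAW-vector clones 4 to 7. RAW-FoxQ1 clones 7.1 and 7.2 lay above RAW-vector clone 6, which was low beside the other RAW-vector clones. The log2 fold change of -0.23 (standard error 0.109, 95% confidence interval -0.47 to 0.020) did not pass the test (limma adjusted p = 0.136, exact permutation p = 0.103). It was -0.32 with an adjusted p of 0.0268 from limma without RAW-vector clone 6, and -0.28 with an adjusted p of 0.0472 when arrays were weighted by quality. With the poly-A covariate it was -0.16 (adjusted p = 0.706 from limma). Its SD was 0.179 in RAW-FoxQ1 and 0.191 in RAW-vector. Only 2 claudins in RAW-FoxQ1 and 3 in RAW-vector had an SD above the median of all gene rows, which was 0.0731 in RAW-FoxQ1 and 0.0750 in RAW-vector.

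The other barrier-forming members did not pass the test. Cldn1, which the barrier of the epidermis needs, lay between 6.37 and 6.44 in RAW-FoxQ1 and between 6.37 and 6.48 in RAW-vector. Cldn5, the main claudin of endothelium and the blood-brain barrier, lay between 6.90 and 7.03 in RAW-FoxQ1 and between 6.97 and 7.01 in RAW-vector. Cldn7, an intestinal claudin, lay between 6.53 and 6.67 in RAW-FoxQ1 and between 6.51 and 6.58 in RAW-vector. The groups overlapped for each of these genes. Cldn18, known from stomach and lung, lay between 6.60 and 6.68 in RAW-FoxQ1 and between 6.65 and 6.75 in RAW-vector, again with overlap. The 95% intervals of the log2 fold change were -0.08 to 0.07 for Cldn1, -0.11 to 0.04 for Cldn5, -0.06 to 0.11 for Cldn7 and -0.11 to 0.03 for Cldn18, so on this array signal scale larger differences lie outside them.

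The ion channel formers were also not called. Cldn15, which passes sodium in the small intestine, lay between 7.03 and 7.23 in RAW-FoxQ1 and between 7.15 and 7.29 in RAW-vector, with a log2 fold change of -0.08 (95% interval -0.20 to 0.04, adjusted p = 0.282 from limma). Cldn10, whose splice forms favour cations or anions, lay between 6.90 and 7.08 in RAW-FoxQ1 and between 6.83 and 7.01 in RAW-vector, with a log2 fold change of 0.05 (95% interval -0.06 to 0.16, adjusted p = 0.491 from limma). Clones of both groups mixed for both genes. With the poly-A controls as a covariate the direction turned for Cldn1 (0.034), Cldn7 (-0.022) and Cldn10 (-0.13), while Cldn5 stood at -0.12, Cldn15 at -0.18 and Cldn18 at -0.075, none of them called.

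Another 9 claudins, of 17 looked for, had a row on the array. None of them came near the level or the difference of Cldn11: their means stood at or below the 34.1 percentile in RAW-FoxQ1 and the 40.1 percentile in RAW-vector, and their log2 fold changes ran from -0.16 to 0.09 with a median of -0.04. Cldn13 and Cldn14 fell and 0 rose (22.2% called, against 40.9% of all gene rows). The clone values of these 2 of the 9 did not overlap between the groups, against 36.1% of all gene rows. Cldn13 averaged 6.94 ± 0.070 in RAW-FoxQ1 and 7.10 ± 0.055 in RAW-vector (SD, n = 5 and 4), a log2 fold change of -0.16 (adjusted p = 0.0159 from limma), and lost the call without RAW-vector clone 4 (adjusted p = 0.0507). Cldn14 averaged 6.71 ± 0.035 in RAW-FoxQ1 and 6.83 ± 0.052 in RAW-vector (SD, n = 5 and 4), a log2 fold change of -0.12 (adjusted p = 0.0180 from limma), and lost the call without RAW-vector clone 7 (adjusted p = 0.0504). With the poly-A covariate neither was called: the log2 fold change was -0.27 for Cldn13, farther from 0 (adjusted p = 0.0544 from limma), and -0.021 for Cldn14, closer to 0 (adjusted p = 0.870 from limma).

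Genes beside Cldn11 on chromosome 3 differed far less than Cldn11 did. Of the 5 nearest measured genes on each side, 5 fell, 2 rose and 3 were not called (70.0% called, against 40.9% of all gene rows). Skil, a repressor of TGF-β signalling and the nearest gene before Cldn11, had a log2 fold change of -0.18 (adjusted p = 0.0114 from limma). Prkci, an atypical protein kinase C of the polarity complex, had -0.30 (adjusted p = 6.7e-04 from limma). Gpr160, an orphan receptor, and Sec62, a translocon protein, had log2 fold changes of -0.29 and -0.36 and were also called, and Samd7 had 0.0089 and was not. On the other side, Slc7a14 and Kcnmb2 next to Cldn11 had -0.02 and 0.01 and were not called. Zmat3, a p53 target, averaged 10.26 ± 0.259 in RAW-FoxQ1 and 11.39 ± 0.183 in RAW-vector (SD, n = 5 and 4), a log2 fold change of -1.13 (adjusted p = 1.2e-04 from limma). The last in this row, 4930429B21Rik and Zfp639, rose by 0.22 and 0.21. With the poly-A covariate 3 of the 10 were called, against 16.6% of all gene rows: Sec62 at -0.35, Prkci at -0.45 and Zmat3 at -1.43. Skil, Gpr160, 4930429B21Rik and Zfp639 lost the call, at -0.059, -0.27, 0.092 and 0.092.

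**Figure D3:**
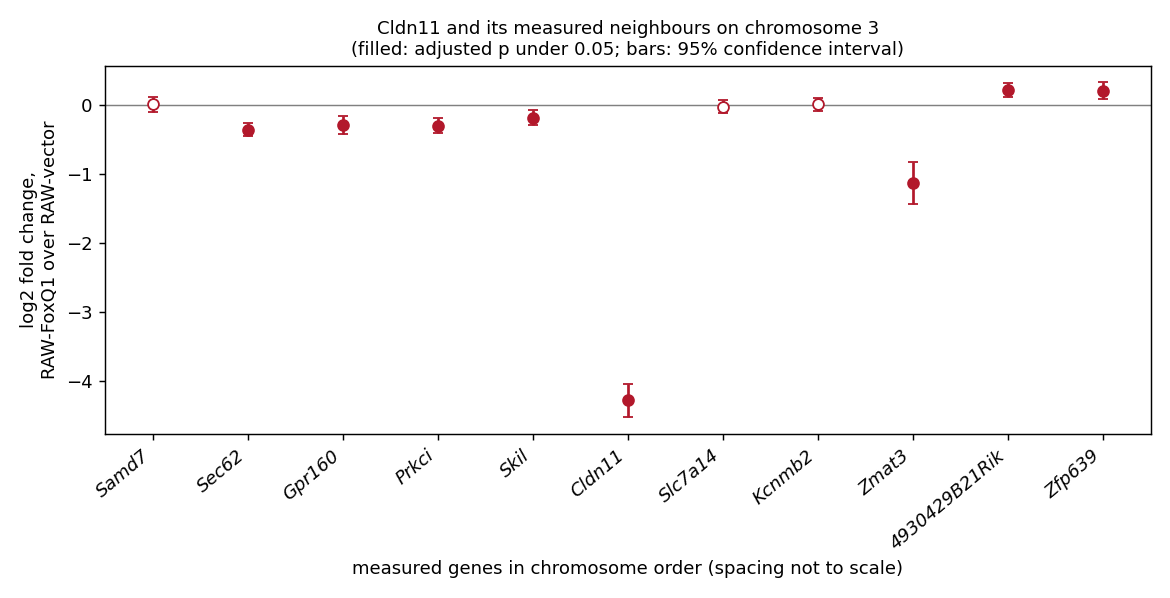
Log2 fold change of RAW-FoxQ1 over RAW-vector (vertical axis) with 95% confidence interval for Cldn11 and the 5 nearest measured genes on each side, in chromosome order and not to scale. Cldn11 stands at -4.28 and Zmat3 at -1.13, and the other neighbours lie between -0.36 and 0.22.

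The named genes whose profile over the 9 clones lay closest to that of Cldn11 were Dbp, Acss1 and Tspan13, by the root mean square difference of log2 values centred on each gene's mean. Dbp, a transcription factor with circadian rhythm, had a root mean square difference of 0.739 and 1 unnamed row lay closer. It read 8.73, 8.25, 7.60, 8.02 and 7.92 in RAW-FoxQ1 clones 7.1 to 7.5 and 11.45, 10.88, 10.87 and 11.53 in RAW-vector clones 4 to 7. Its order among RAW-vector clones was not that of Cldn11, since clone 7 was highest for Dbp and clone 5 for Cldn11. Acss1, a mitochondrial acetyl-CoA synthetase, had a root mean square difference of 0.794 and averaged 6.54 ± 0.036 in RAW-FoxQ1 and 9.26 ± 0.102 in RAW-vector (SD, n = 5 and 4). Tspan13, a tetraspanin, had 0.835 and averaged 7.36 ± 0.517 in RAW-FoxQ1 and 10.20 ± 0.273 in RAW-vector (SD, n = 5 and 4). These genes were picked for this likeness, so their log2 fold changes of -3.08, -2.72 and -2.85 for Dbp, Acss1 and Tspan13 are a description.

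The remaining genes of the junction were read from lists, each set against the 40.9% called over all gene rows. Of the 35 genes of these lists that were called and fall under the naming rule, the 2 further claudins included, 23 stayed called whichever clone was left out and 7 stayed called with the poly-A controls as a covariate. Those 7 were Arhgef2, Prkci, Ybx3, Amotl1, Rock1, Creb1 and Egfl7. Over all gene rows the share called fell from 40.9% to 16.6% with the same covariate. Rock1 and Creb1 lost the call on leaving out single clones, Rock1 without RAW-vector clone 5 or RAW-FoxQ1 clones 7.1, 7.4 or 7.5 and Creb1 without RAW-vector clones 5 or 6.

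Of 15 proteins listed as tight junction membrane proteins, all 15 were measured, 2 fell and 0 rose. This is 13.3% called, against 40.9% of all gene rows, with a median log2 fold change of -0.01. Marveld1, a MARVEL domain protein, averaged 7.27 ± 0.199 in RAW-FoxQ1 and 8.08 ± 0.424 in RAW-vector (SD, n = 5 and 4), a log2 fold change of -0.82 (adjusted p = 0.00557 from limma). Jam2, an adhesion molecule bound by leukocyte integrins, averaged 7.55 ± 0.215 in RAW-FoxQ1 and 8.13 ± 0.174 in RAW-vector (SD, n = 5 and 4), a log2 fold change of -0.58 (adjusted p = 0.00323 from limma). Occludin (Ocln), the first tight junction membrane protein to be described, was dim, at 6.28 in RAW-FoxQ1 and 6.23 in RAW-vector, and was not called. Neither Marveld1 nor Jam2 was called with the poly-A covariate, at -1.01 and -0.68.

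Among 11 measured relatives of claudins with 4 membrane spans, of 14 listed, 1 rose and 1 fell. The share called was 18.2%, against 40.9% of all gene rows. Emp3 averaged 12.39 ± 0.389 in RAW-FoxQ1 and 11.28 ± 0.159 in RAW-vector (SD, n = 5 and 4), a log2 fold change of 1.11 (adjusted p = 8.6e-04 from limma). Pmp22, a myelin protein of peripheral nerve, averaged 9.67 ± 0.535 in RAW-FoxQ1 and 11.15 ± 0.146 in RAW-vector (SD, n = 5 and 4), a log2 fold change of -1.47 (adjusted p = 8.7e-04 from limma). The groups did not overlap for either gene. With the poly-A covariate Emp3 stood at 0.94 and Pmp22 at -1.29, neither called.

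Of the scaffold and polarity proteins beneath the strands, 22 of 27 were measured, 2 rose and 4 fell. The share called was 27.3%, against 40.9% of all gene rows. Arhgef2, which cingulin holds at junctions, fell by 0.42 on the log2 scale (adjusted p = 2.0e-05 from limma), and Amotl1 and Prkci fell by 0.35 and 0.30. Micall2, which binds Rab13 at junctions, had a log2 fold change of 0.41 and was called, but it stood at 0.015 with the poly-A covariate (adjusted p = 0.977 from limma) and lost the call without RAW-vector clone 7 (adjusted p = 0.0569). Ybx3, the Y-box factor known as ZONAB that binds ZO-1, rose by 0.38. Arhgef2, Amotl1, Prkci and Ybx3 stayed called with the poly-A covariate, at -0.34, -0.41, -0.45 and 0.60. ZO-1 itself (Tjp1) was dim, at 6.28 in RAW-FoxQ1 and 6.27 in RAW-vector. The remaining gene, Magi1, had -0.10 and lost the call with the poly-A covariate (-0.14) and on leaving out any of 7 clones, all but RAW-vector clone 6 and RAW-FoxQ1 clone 7.2.

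Of the proteins that bind or modify claudins, 22 of 23 were measured, 3 rose and 4 fell (31.8% called, against 40.9% of all gene rows). Prkca, a protein kinase C, averaged 8.16 ± 0.253 in RAW-FoxQ1 and 7.35 ± 0.067 in RAW-vector (SD, n = 5 and 4), a log2 fold change of 0.81 (adjusted p = 3.9e-04 from limma). Cd81, a tetraspanin that pairs with claudin-1 in liver cells, had a log2 fold change of 0.44 and Rock1 0.20. Prkca stood at 0.35 with the poly-A covariate (adjusted p = 0.177 from limma) and Cd81 at 0.15 (adjusted p = 0.636 from limma), both no longer called, and Rock1 at 0.37, still called. Prkaca, Cd151, Lnx1 and Spint2 had -0.22, -0.19, -0.13 and -0.10, of which Cd151 lost the call without RAW-vector clone 6 or RAW-FoxQ1 clone 7.4, and Lnx1 without any of 7 clones, all but RAW-vector clone 6 and RAW-FoxQ1 clone 7.2. None of these last 4 was called with the poly-A covariate, at -0.098, -0.16, -0.063 and -0.081 for Prkaca, Cd151, Lnx1 and Spint2. Tspan3 and the integrin chain Itgb1, which form a complex with claudin-11 in oligodendrocytes, had log2 fold changes of 0.06 (95% interval -0.14 to 0.27) and -0.16 (95% interval -0.42 to 0.10) and did not pass the test.

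Transcription factors known to act on claudin genes or on epithelial junctions were measured for 29 of 30, of which 2 rose and 4 fell. This is 20.7% called, against 40.9% of all gene rows, and the median log2 fold change was -0.02. Sp3 and Sp1, which bind GC boxes, had log2 fold changes of -0.42 and -0.23, but with the poly-A covariate these were -0.035 (adjusted p = 0.907 from limma) and -0.18 (adjusted p = 0.332 from limma). Creb1 had 0.22 and Grhl1, a grainyhead factor of epithelia, 0.20, and Grhl1 lost the call without RAW-vector clone 7. Foxo1, a forkhead factor that represses Cldn5 in endothelium, had -0.16 and lost the call on leaving out any of 7 clones, all but RAW-vector clone 6 and RAW-FoxQ1 clone 7.1. Sox10, which drives oligodendrocyte genes, had -0.14. Grhl1, Foxo1 and Sox10 stood at 0.18, -0.14 and -0.20 with the poly-A covariate, none called, and Creb1 at 0.40, still called. Snai2, a repressor that binds the E-box, averaged 7.02 ± 0.257 in RAW-FoxQ1 and 6.63 ± 0.276 in RAW-vector (SD, n = 5 and 4) and did not pass the test (adjusted p = 0.0751 from limma). The other listed Snail and ZEB factors went both ways. Zeb1 had a log2 fold change of 0.13, Snai1 -0.04 and Zeb2 -0.14, and none of them was called.

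Markers of the cell types that use these claudins were read in the same way. Of 10 measured epithelial markers, of 12 listed, 0 were called by limma, against 40.9% of all gene rows. From limma 1, Cdh1, had an unadjusted p under 0.05, which at least 40.9% of all gene rows had. By the methods' per-gene test 0 were called. All stood at or below the 42.8 percentile in RAW-FoxQ1 and the 43.5 percentile in RAW-vector. The mean of this list lay between 6.53 and 6.61 in RAW-FoxQ1 clones and between 6.53 and 6.59 in RAW-vector clones, and Epcam and Cdh1 were dim in both groups. Of 13 measured oligodendrocyte and Sertoli cell markers, of 16 listed, Amh (-0.15) and Sox10 (-0.14) fell and 0 rose. That is 15.4% called, against 40.9% of all gene rows. The mean of that list lay between 6.92 and 6.97 in RAW-FoxQ1 clones and between 6.96 and 6.98 in RAW-vector clones. Its genes stood at or below the 63.1 percentile in RAW-FoxQ1 and the 63.8 percentile in RAW-vector. Amh lost the call on leaving out RAW-vector clone 4, RAW-vector clone 7 or RAW-FoxQ1 clone 7.2. Neither Amh nor Sox10 was called with the poly-A covariate, at -0.24 and -0.20. Of 12 endothelial markers, all measured, Flt1 and Vwf rose and Egfl7 fell (25.0% called, against 40.9% of all gene rows). Flt1, a VEGF receptor that monocytes also carry, averaged 8.64 ± 0.565 in RAW-FoxQ1 and 6.62 ± 0.049 in RAW-vector (SD, n = 5 and 4). The defining markers Cdh5 and Pecam1 were dim, at 6.56 and 6.68 in RAW-FoxQ1 and 6.53 and 6.64 in RAW-vector. Egfl7, at 7.83 in RAW-FoxQ1 and 9.38 in RAW-vector, and Eng, at 8.35 and 8.33, were brighter. Egfl7 stayed called at -1.73 with the poly-A covariate, while Flt1 (1.45) and Vwf (0.24) did not.

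Macrophage markers were read as a check of the labelled cell type. All 14 measured, of 16 listed, stood at or above the 50.5 percentile in RAW-FoxQ1 and the 34.1 percentile in RAW-vector, and Csf1r, the receptor of the macrophage growth factor, averaged 13.25 in RAW-FoxQ1 and 13.24 in RAW-vector. Of the 14, 6 fell and 2 rose (57.1% called, against 40.9% of all gene rows). The list mean lay between 11.32 and 11.55 in RAW-FoxQ1 clones and between 11.57 and 11.92 in RAW-vector clones. Adgre1, the F4/80 antigen, averaged 8.70 ± 0.965 in RAW-FoxQ1 and 11.08 ± 0.046 in RAW-vector (SD, n = 5 and 4), a log2 fold change of -2.38 (adjusted p = 0.00140 from limma). Mpeg1, a perforin of macrophages, Itgam and Cybb had log2 fold changes of -1.60, -0.65 and -0.54, while the Fc receptor Fcgr1 had 0.54 and Aif1 0.58. Aif1 lost the call on leaving out RAW-vector clones 4, 5 or 7 or RAW-FoxQ1 clone 7.2. With the poly-A covariate none of these 6 was called, with Adgre1 at -1.50 (adjusted p = 0.261 from limma), Mpeg1 at -1.08, Itgam at -0.72, Cybb at -0.79, Fcgr1 at 0.33 and Aif1 at 0.18 (adjusted p = 0.803 from limma). These markers move in the same clones as Cldn11, and their part in its difference was not tested.

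**Figure D4:**
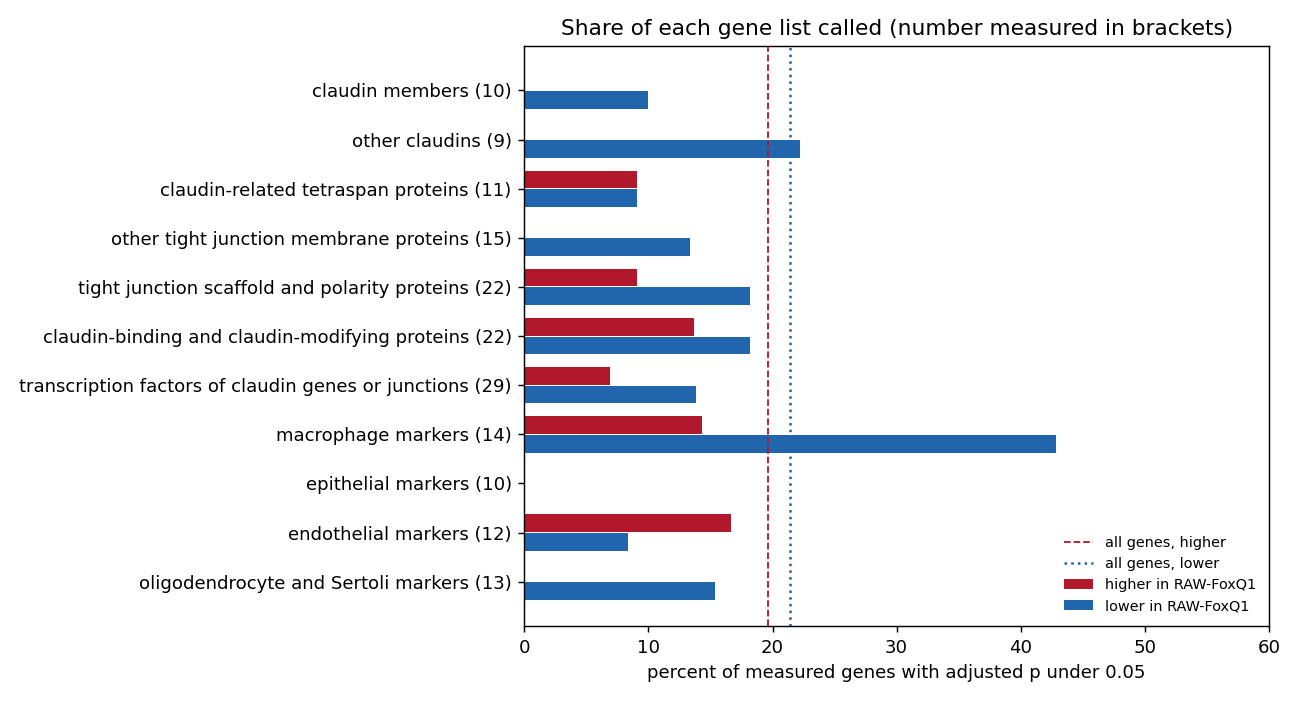
Percent of the measured genes of each list with an adjusted p under 0.05 (horizontal axis), higher (red, upper bar) or lower (blue, lower bar) in RAW-FoxQ1, with the number measured in brackets and lines at 19.6% and 21.4%, the shares of all gene rows called higher and lower. Of the 10 claudins named first, 10.0% were called, all lower, and the bar of macrophage markers called lower is the longest.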

How the data were processed

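RNA of 9 stable RAW-264.7 clones was measured, 1 array each. The values used are the deposited log2 expression values, 1 row per gene definition. Per the study's methods, the authors grouped probes by Entrez gene with a custom definition file, normalized by quantiles and ran a one-way ANOVA for each gene (false discovery rate 0.05). RMA is named in the submitters' processing notes, with its version not given in the sources used here. Scanner files were not used here, and background correction and probe summary were therefore taken as deposited.

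The table has 16556 rows, and without its 64 control probe sets 16492 were tested. The platform's probe annotation gave 15270 rows 1 symbol, and 1222 rows stay unnamed. For 3 symbols found on several rows, the brightest was used. The log2 values were fitted with limma 3.58.1 in R 4.3.3 (lmFit and eBayes, group as the only term, Benjamini-Hochberg over all rows, called at an adjusted p under 0.05). For single genes, the 126 splits of the clones also gave a two-sided exact permutation p. Scripts were tested on simulated data.

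The claudins, the other gene lists and the tests were chosen with earlier results of these data known. The text names the 10 claudins, Foxq1, at most 4 called genes per direction of each list, defining markers, the 3 named genes most like Cldn11 and its 5 nearest measured genes on each side. Ocln, Tjp1, Tspan3, Itgb1, Snai2, Snai1, Zeb1, Zeb2 and Eng were named in addition after their values were seen. Promoter windows and gene order come from RefSeq (GRCm38.p6), and all 10 claudins matched 15 windows. Alternatives tried were array weights, trend and robust settings in eBayes, the one-way ANOVA of the methods, repeated quantile normalization, median centring, a filter at the 40 percentile of mean signal (log2 7.11), row averaging, the poly-A covariate and leaving out each clone.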

Additional observations from a re-analysis of the deposited data

Results flagged for a closer look

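In 58 named genes, each group of clones was searched for a single clone set apart from the rest of its group, 116 groups in all, of which chance gives about 1 in 20. A clone stood apart in 3, and none of the 10 claudins was among them. Aif1, the macrophage marker also called Iba1, was highest in RAW-FoxQ1 clone 7.3 at 8.22, with the nearest RAW-FoxQ1 clone at 7.43. Arhgef2, which cingulin holds at junctions, was lowest in RAW-FoxQ1 clone 7.2 at 8.14, with the nearest RAW-FoxQ1 clone at 8.21. Cd151, a tetraspanin, was highest in RAW-vector clone 6 at 9.19, with the nearest RAW-vector clone at 9.08.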

How the results depend on the processing

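Cldn11 stayed lower and called in all 17 alternatives (-4.38 to -4.16 leaving out 1 clone, adjusted p of 6.4e-10 to 3.4e-05 over all of them). Claudins called numbered 2 with the methods' one-way ANOVA and 2 with array weights, and 1 to 2 leaving out 1 clone, being 2 without RAW-vector clones 4, 5 or 6. Leaving out 1 clone turned Cldn1 (-0.024 to 0.012, with 0.0028 and 0.012 without RAW-FoxQ1 clone 7.2 and RAW-vector clone 4), Samd7 (-0.030 to 0.045, with -0.011 without RAW-FoxQ1 clone 7.4) and Kcnmb2 (-0.014 to 0.047), and the poly-A covariate turned Cldn1 (0.034), Cldn7 (-0.022), Cldn10 (-0.13) and Kcnmb2 (-0.035). With that covariate the genes called fell to 0 for the further claudins, the relatives with 4 spans, the junction membrane proteins, the macrophage markers and the oligodendrocyte and Sertoli markers, to 1 for the claudin-binding proteins, the transcription factors and the endothelial markers, and to 3 for the neighbours of Cldn11. Over all gene rows the share called fell from 40.9% to 16.6% with it. For the other settings that share is not given here, so changed counts there cannot be set against the whole array. As the covariate runs with the groups, standard errors rise (0.213 for Cldn11). The relatives with 4 spans had 5 calls with the methods' one-way ANOVA and 4 with trend and robust settings, where the epithelial markers had 1. Leaving out 1 clone gave 1 to 3 calls for the further claudins (1 without RAW-vector clones 4 or 7), 2 to 3 for the relatives with 4 spans and for the junction membrane proteins, 4 to 6 for the scaffold proteins, 4 to 7 for the claudin-binding proteins (4 without RAW-FoxQ1 clone 7.4) and for the transcription factors (4 without RAW-vector clone 5), 7 to 8 for the macrophage markers, 0 to 1 for the epithelial markers (1 without RAW-vector clone 5), 3 to 4 for the endothelial markers, 1 to 3 for the oligodendrocyte and Sertoli markers (1 without RAW-vector clones 4 or 7 or RAW-FoxQ1 clone 7.2) and 7 for the neighbours. The causes of these changes were not tested. The filter on dim genes left no further claudin, and no Cldn1, Cldn5, Cldn7, Cldn10 or Cldn18. No paired analysis was possible because the groups share no clone numbers.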
